A study of Mus musculus with 16 samples.

Results

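The genes described here encode the subunits of the proteasome: every gene of the count table whose symbol reads Psma, Psmb, Psmc or Psmd followed by a number. The rule selects by name and uses no measured value, and it found 39 of the 24411 genes. They are 8 alpha ring genes, 7 constitutive beta ring genes, the 3 immunoproteasome genes Psmb8, Psmb9 and Psmb10, the thymus-restricted beta gene Psmb11, 6 ATPase genes and 11 non-ATPase genes of the 19S cap, and 3 genes for 19S assembly chaperones (Psmd5, Psmd9 and Psmd10). Total RNA of mouse muscle stem cells (MuSCs), sorted by flow cytometry from dissociated hindlimb muscle, was sequenced in 4 groups of 4 libraries. Uninjured control MuSCs and uninjured TRF2 knockout MuSCs came from muscle labelled uninjured. The other groups, control and TRF2 knockout at 3 days post-injury (3 DPI), came from tibialis anterior muscle injected with 10 µl of notexin, a snake venom toxin that destroys myofibres and spares MuSCs. The knockout carries floxed alleles of Terf2, which encodes the telomere protein TRF2, and a tamoxifen-inducible Cre under the Pax7 promoter, so that deletion is limited to cells that express Pax7 and depends on how completely tamoxifen acted. The labels call the controls wild type and do not say whether they carried Cre or received tamoxifen.

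The proteasome is a barrel of stacked rings that degrades proteins tagged with ubiquitin. The outer alpha rings gate the barrel, the inner beta rings hold the 3 proteolytic sites (Psmb5, Psmb6 and Psmb7), and the 19S cap recognises tagged substrates, removes the ubiquitin and unfolds the substrate with its ring of ATPases. Interferon replaces the 3 catalytic subunits in newly made particles by Psmb8, Psmb9 and Psmb10, which changes the peptides cut for MHC class I, and blood cells express these 3 genes constitutively. The proteasome is needed for MuSC survival and activation, and transcription of its genes is raised together by the factor Nfe2l1 when its activity is short.

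Because the subunit genes are known to be transcribed together, short upstream sequences were inspected for letters of 4 motifs, on both strands, in the 250 bases before the RefSeq start (GRCm38.p6). Windows were found for 32 of the 39 genes (34 windows). The interferon-stimulated response element (ISRE, the letters GAAA, any 2 bases and GAAA again) occurred in 3 genes, Psmb3, Psmd4 and Psmd9, or 8.82% of the windows, against 2.98% of all 32851 windows of the same length. The gamma-activated site (GAS, TTCNNNGAA), an element of interferon-induced genes, occurred in Psmb8 alone (2.94% against 7.02%). The antioxidant response element (ARE, TGANNNNGC), bound by Nfe2l1 and Nfe2l2, occurred in 13 genes (41.2% against 35.2%). The ETS letters CCGGAAG occurred in 9 genes, all of them alpha ring or 19S genes (29.4% against 6.91%). The sequences below were chosen because they lie before the RefSeq starts of 2 immunoproteasome genes, of the constitutive gene Psmb5 and of the cap gene Psmd2, all higher in control MuSCs after injury. Each window held 1 match to 1 of the 4 motifs, so none overlapped another; a match is a description, not a site in use. Capitals mark the matched letters. The Psmb8 site (chr17:34198088-34198116, plus strand) and the Psmb9 site (chr17:34187372-34187400, minus strand) are given with 10 flanking bases on each side. In GENCODE M21 both lie within the gene, 367 and 364 bases past its outermost start, in an exonic 5′ UTR of 1 of the 7 annotated transcripts of each gene. The Psmb9 window shares 225 bases with that of Tap1, a peptide transporter gene on the opposite strand, so both genes share this ARE match. The Psmb5 window is chr14:54617996-54618245 (minus strand), with 27 bases in a GENCODE 5′ UTR, and that of Psmd2 is chr16:20651402-20651651 (plus strand). The window of Psmb10 held none of the 4 motifs.

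Psmb8 GAS: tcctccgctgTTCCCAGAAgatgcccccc
Psmb9 ARE: ccttgcgcgaTGATGGGGCggggcctcag
Psmb5 ARE: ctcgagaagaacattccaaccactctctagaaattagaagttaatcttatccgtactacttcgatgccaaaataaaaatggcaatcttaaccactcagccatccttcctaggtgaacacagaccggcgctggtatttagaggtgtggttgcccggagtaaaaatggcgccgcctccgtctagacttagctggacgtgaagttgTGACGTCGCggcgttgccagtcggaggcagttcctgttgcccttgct
Psmd2 ETS: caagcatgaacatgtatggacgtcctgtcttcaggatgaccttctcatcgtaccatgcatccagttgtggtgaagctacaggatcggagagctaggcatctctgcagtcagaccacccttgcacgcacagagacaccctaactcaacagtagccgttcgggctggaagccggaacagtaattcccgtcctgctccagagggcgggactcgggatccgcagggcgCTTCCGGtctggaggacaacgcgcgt

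The libraries were shallow, with 620506 to 1351130 estimated counts each. A proteasome gene had 0 to 288 counts in a library, with a median of 29, and a count of 0 allows up to 2.47 to 4.63 CPM (counts per total counts), a floor of 3 counts that covers counting error only. CPM are scaled here by the trimmed mean of M-values (TMM) over all 16 libraries. Terf2 itself was at 76.4 ± 12.5 CPM in uninjured control and 45.6 ± 13.2 CPM in uninjured TRF2 knockout MuSCs (mean ± SD, n = 4), a log2 difference of -0.62 that was not called (edgeR adjusted p = 0.199). At 3 DPI it was 43.8 ± 6.11 CPM in control libraries and 57.8 ± 28.4 CPM in the libraries labelled TRF2 knockout (adjusted p = 0.755), so that Terf2 does not mark the labelled genotype there. Replicate 3 of the 3 DPI libraries labelled TRF2 knockout stood apart. It detected 15389 genes, against 19996 or more in every other library, and 13 of the 39 proteasome genes had 0 counts in it, against 0 or 1 in the others. The results that turn on it are also given without it; leaving it out of the overlap counts and summed levels was chosen after the data were seen.

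The sorted cells carried MuSC markers, but not those alone. The summed level of 12 MuSC marker genes was 5583 ± 930 CPM in uninjured control, 3035 ± 487 CPM in uninjured TRF2 knockout, 1629 ± 222 CPM in control at 3 DPI and 764 ± 66.9 CPM in the 3 DPI libraries labelled TRF2 knockout. The summed level of 17 myeloid markers was 113 to 200 CPM and 193 to 236 CPM in the uninjured control and knockout libraries, but 5878 to 7522 CPM and 2409 to 7035 CPM at 3 DPI. Lyz2 led that list at 3 DPI, and none of the 17 was at 0 in all control 3 DPI libraries although the sort excluded CD11b and CD45. Because the libraries are bulk, fewer cells of a type and less RNA per cell cannot be told apart.

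Summed over all 39 genes, proteasome transcripts were lowest in uninjured TRF2 knockout MuSCs and highest in control MuSCs at 3 DPI. The uninjured control libraries held 1719, 1468, 1191 and 1418 CPM and the uninjured knockout libraries 864, 1074, 1031 and 1083 CPM, so the groups did not overlap. At 3 DPI the control libraries held 1920, 2493, 2409 and 2720 CPM. The 3 DPI libraries labelled TRF2 knockout held 1980, 1488, 1035 and 1662 CPM, overlapping the control range only through replicate 1. Their mean was 1541 ± 394 CPM and 1710 ± 250 CPM without replicate 3, against 2385 ± 337 CPM in control. On the per-length scale (TPM, from the second deposited table) the uninjured groups overlapped slightly, at 2064 to 2691 TPM in control and 1895 to 2080 TPM in the knockout. No p is given for these sums.

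**Figure D1:**
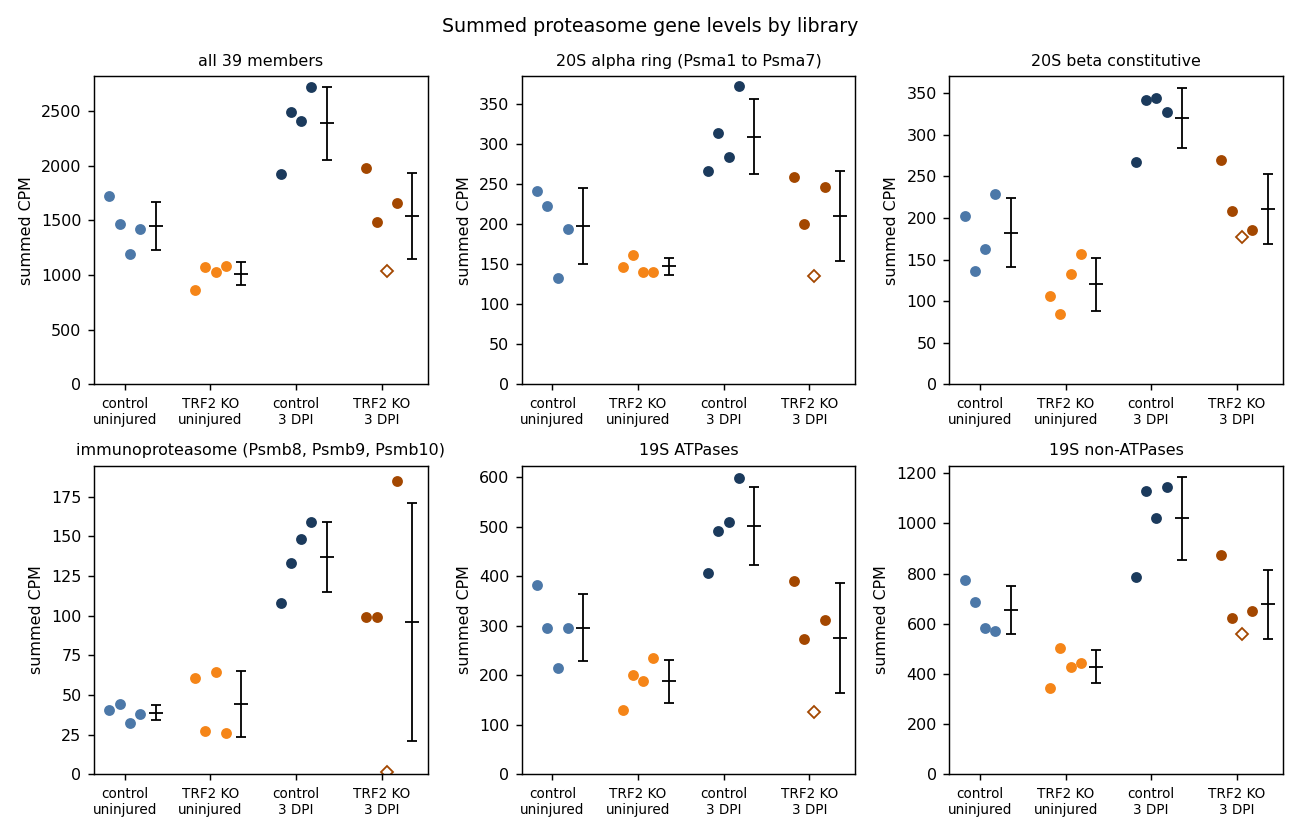
Summed TMM-scaled CPM (y axis, linear, from 0) of all 39 proteasome genes and of 5 classes, for each library (points, 4 a group) with the group mean and SD (black bar); the open diamond is replicate 3 of the 3 DPI libraries labelled TRF2 knockout. For all 39 genes the uninjured knockout libraries (864 to 1083 CPM) lie below the uninjured control libraries (1191 to 1719 CPM), and for the immunoproteasome the control 3 DPI libraries lie at 108 to 159 CPM.

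Levels between genes can be compared only per length. In uninjured control MuSCs the most abundant were Psmd4, a ubiquitin receptor of the cap, at 138 ± 48.2 TPM, Psmd3, a scaffold subunit of the cap lid, at 119 ± 20.6, and the ATPase gene Psmc3 at 117 ± 31.2 TPM. The spread of these 3 overlapped. The immunoproteasome genes stood low, with Psmb8 at 36.4 ± 7.08, Psmb10 at 27.6 ± 10.4 and Psmb9 at 15.5 ± 12.4 TPM, ranks 30, 34 and 36 of 39. In control MuSCs at 3 DPI Psmb8 reached 141 ± 27.7 TPM and rank 8, Psmb10 81.6 ± 18.3 and rank 26, and Psmb9 67.8 ± 29.1 and rank 30. At the bottom in all 4 groups were tissue-restricted genes among the last 3 ranks: Psma8, the testis form of an alpha subunit, at 4.15 to 10.9 TPM by group mean, and Psmb11, known from thymic cortical epithelium, at 6.09 to 14.97 TPM.

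The first comparison asks how proteasome genes differ between control MuSCs of injured and uninjured muscle. In control MuSCs 16 of 38 proteasome genes tested rose at 3 DPI and none fell, where called means an adjusted p under 0.02 and a fold change over 1.5. The same call was made upward for 10.8% of all 15356 genes tested. An unadjusted p under 0.05 with a higher estimate was reached by 24 of 38, against 16.9% of all genes, and 37 of 38 estimates were above 0, against 53.8%. The 4 control 3 DPI libraries all lay above the 4 uninjured ones for 14 of 38, against 12.0%. The median log2 fold change of the 38 was 0.73, beside 0.07 for all genes. By class, all 3 immunoproteasome genes rose (median 1.94), as did 1 of 7 alpha ring genes, 3 of 7 constitutive beta genes (median 0.99), 3 of 6 ATPases, 5 of 11 non-ATPases and 1 of 3 chaperones. Psma8 was not tested for low counts. Psmb9 and Psmd10 passed the filter on low counts through the 3 DPI group alone: all 4 control 3 DPI libraries and 0 of the uninjured ones reached its minimum of 8.41 CPM. They had to be higher at 3 DPI to be tested, so they lend no support to the count of 16 or to the other counts and medians given here. The same holds for Psmb9 in the immunoproteasome count and median, and for Psmd10 in the chaperone count. Both were also called with no filter (adjusted p = 0.00136 and 0.000972).

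The immunoproteasome genes had the highest median of the 7 classes, a ranking to which Psmb9 lends no support because of the filter. Psmb8 stood at 24.1, 18.9, 13.95 and 18.5 CPM in the uninjured control libraries and at 72.6, 51.5, 83.6 and 77.4 CPM at 3 DPI. The groups did not overlap, and the log2 fold change was 1.94 ± 0.30 (SE, 3.84-fold, adjusted p = 1.03e-06). Psmb10 stood at 16.1, 21.6, 11.6 and 9.75 CPM and then at 26.3, 52.5, 46.2 and 49.4 CPM, again without overlap, with a log2 fold change of 1.60 ± 0.36 (adjusted p = 0.000506). Psmb9 was low throughout, at 0, 3.6, 6.98 and 9.75 CPM in uninjured MuSCs and 9.27, 29.2, 18.7 and 32.1 CPM at 3 DPI. Its groups overlapped slightly, and its log2 fold change of 2.21 ± 0.59 (adjusted p = 0.00350) was lost without control 3 DPI replicate 2 (adjusted p = 0.0241) or replicate 4 (adjusted p = 0.0340). Psmb9 exons overlap exons of Tap1 on the other strand and Psmb8 exons overlap the antisense gene Gm20496. The library kit keeps strand, but whether reads were counted by strand is not stated, so these counts are less certain.

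Their constitutive counterparts rose as well. Psmb5, the chymotrypsin-like site, stood at 6.25, 7.20, 19.8 and 18.5 CPM in uninjured control libraries and at 37.1, 37.0, 26.6 and 50.2 CPM at 3 DPI, a log2 fold change of 1.60 ± 0.40 (adjusted p = 0.00170). Psmb6, the caspase-like site, stood at 45.6, 28.8, 33.7 and 60.5 CPM and then at 72.6, 93.4, 78.7 and 80.6 CPM, a log2 fold change of 0.99 ± 0.25 (adjusted p = 0.00240). It missed the threshold without uninjured control replicate 2 (adjusted p = 0.0278). Psmb7, the trypsin-like site, stood at 37.5, 29.7, 11.6 and 20.5 CPM and then at 43.2, 53.5, 69.8 and 67.5 CPM, a log2 fold change of 1.27 ± 0.31 (adjusted p = 0.00154). None of these 3 genes overlapped between the groups. Their exons overlap a miRNA gene (Psmb5) and the opposite-strand gene Nek6 (Psmb7).

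**Figure D2:**
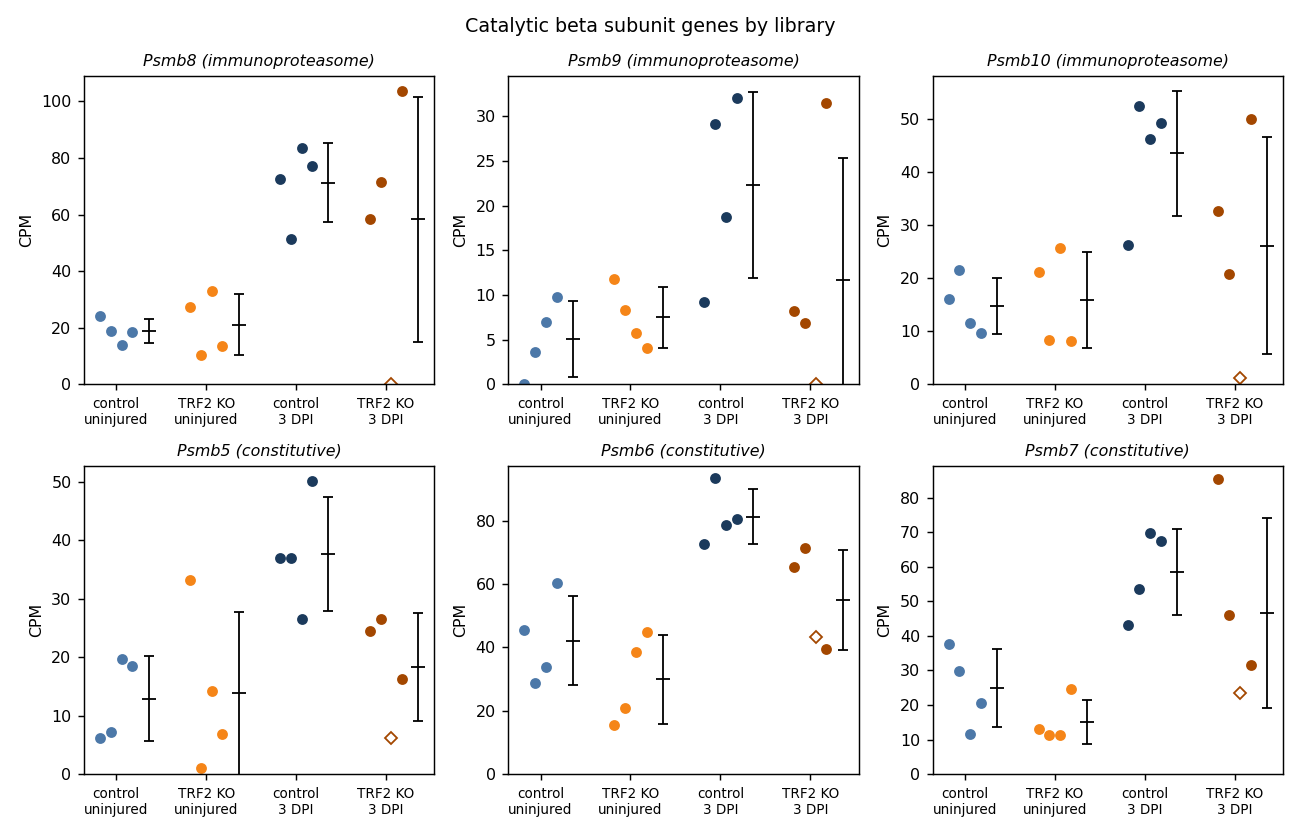
TMM-scaled CPM (y axis, linear, from 0) of the 3 immunoproteasome genes (top) and their constitutive counterparts (bottom) in each library (points, 4 a group), with the group mean and SD (black bar); the open diamond is replicate 3 of the 3 DPI libraries labelled TRF2 knockout, which has 0 counts of Psmb8 and Psmb9. In control libraries Psmb8 stands at 13.95 to 24.1 CPM uninjured and at 51.5 to 83.6 CPM at 3 DPI.

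Of the cap, Psmd2, a large scaffold of the base, stood at 131, 123, 66.3 and 84.8 CPM in uninjured control MuSCs and at 162, 181, 190 and 237 CPM at 3 DPI. All 3 DPI values were above all uninjured values, with a log2 fold change of 0.96 ± 0.21 (adjusted p = 0.000387). Psmd8, a lid subunit, stood at 77.7, 63.0, 91.9 and 56.6 CPM and then at 78.8, 181, 140 and 167 CPM. Its groups overlapped through 3 DPI replicate 1, and its log2 fold change was 1.02 ± 0.23 (adjusted p = 0.000613). Psmc3, an ATPase, stood at 86.7, 98.1, 46.5 and 102 CPM and then at 116, 159, 143 and 211 CPM, a log2 fold change of 0.96 ± 0.22 (adjusted p = 0.000827). The other cap genes that rose were Psmc1, Psmc2, Psmd1, Psmd4 and Psmd14, the deubiquitinase of the lid, with log2 fold changes of 0.74 to 1.21. Psmc3 exons overlap the opposite-strand gene Slc39a13, and Psmd1 exons overlap Gm21972 on the same strand and Htr2b on the other. Psmd10, also known as gankyrin, a chaperone of the cap base, rose from 9.83, 7.20, 4.65 and 2.92 CPM to 21.6, 23.3, 18.7 and 36.2 CPM, a log2 fold change of 2.03 ± 0.49 (adjusted p = 0.00114). Psma7 was the alpha ring gene that rose (0.88 ± 0.29, adjusted p = 0.0189). Psmd9, at -0.29 ± 0.33 (adjusted p = 0.605), was the only estimate below 0.

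The count of 16 depended on the fit. It was 10 of 38 (9.0% of all genes) without uninjured control replicate 2 and 1 of 38, Psmd2, when all 16 libraries were fitted at once (5.12%), and 5 of 39 on the rescaled table (6.06%). Sample descriptions carry a code (JH133 to JH140) whose meaning is not stated. In control MuSCs only JH140 holds both states, with 1 uninjured and 2 injured libraries. With the code as a block 6 of 38 were called (5.29% of all genes), namely Psmb8, Psmb10, Psmc1, Psmd1, Psmd2 and Psmd8, and the median log2 fold change was 1.04.

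Genes of 5 related lists chosen with earlier results of these data known moved as follows in the same comparison, in which 10.8% of all genes were called higher. Of the activators and inhibitor, 2 of 5 tested rose: Psme1 (1.13 ± 0.26 on the log2 scale, adjusted p = 0.000738) and Psme2 (1.57 ± 0.35, adjusted p = 0.000470), which form the interferon-induced cap of the barrel. Of the other assembly chaperones 1 of 4 rose, Pomp (1.26 ± 0.37, adjusted p = 0.00790), the maturation factor of the barrel. Of the receptors and deubiquitinases 3 of 12 rose, the ubiquitin receptor Adrm1 (0.85), the lid subunit gene Shfm1 (1.04) and Zfand5 (0.67). Of the 5 regulators of proteasome genes Nfe2l2 rose (1.04 ± 0.21), while Nfe2l1 was at 0.21 ± 0.19 (adjusted p = 0.490). Of the 26 interferon and MHC class I loading genes 21 rose and none fell (median 1.71), among them Tap1 (2.20), the regulator Nlrc5 (1.94) and the loading factor Tapbp (1.46). Isg15 of this list, at 1.16 to 8.04 CPM in uninjured control libraries, had to be higher at 3 DPI to be tested. It lends that count no support.

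Markers moved with injury too. All 14 myeloid markers tested rose in control MuSCs (median log2 fold change 5.36), as did 8 of 8 cell cycle genes (1.94), whereas 10 of 12 MuSC markers fell and 1 rose. The myeloid markers Tyrobp, C1qb and Fcer1g stood at 0 to 7.15 CPM in the uninjured control libraries, below the filter's minimum of 8.41 CPM. They had to be higher at 3 DPI to be tested and lend the myeloid count no support. Of 8 fibroadipogenic markers 5 rose and 2 fell (median 1.61), while their summed level went down, from 7335 ± 1707 to 5465 ± 934 CPM. The summed cell cycle genes went from 217 ± 19.8 to 998 ± 141 CPM. The part of myeloid and fibroadipogenic RNA and of cell cycling in the rise of the proteasome genes was not tested. In uninjured control and knockout libraries, where the myeloid list held 113 to 236 CPM, the 3 immunoproteasome genes together held 25.9 to 64.4 CPM.

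**Figure D3:**
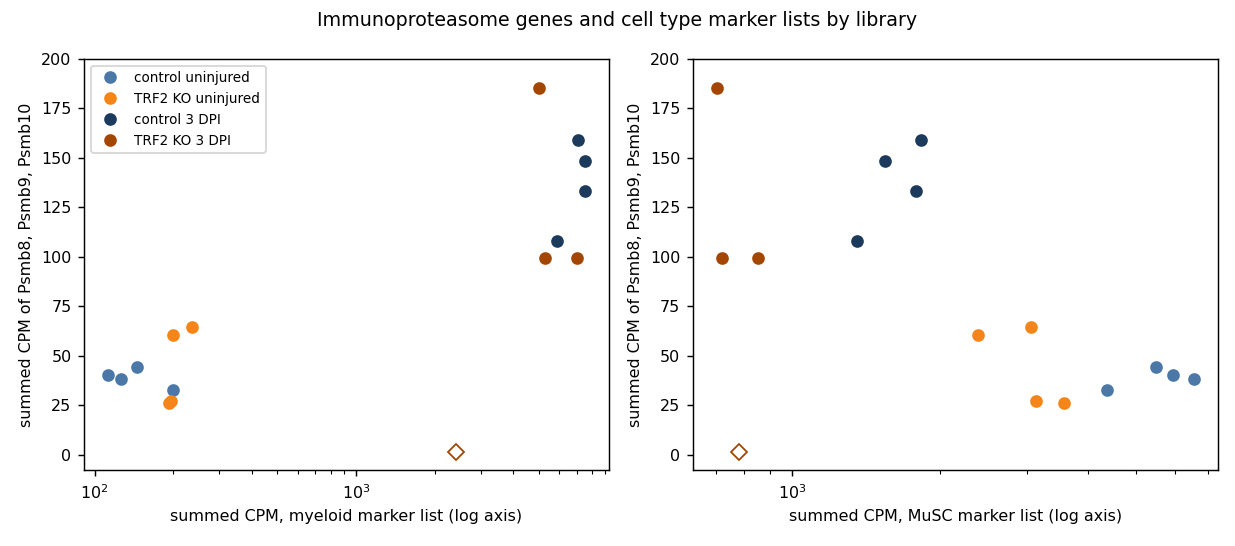
Summed CPM of Psmb8, Psmb9 and Psmb10 (y axis, linear) against the summed CPM of 17 myeloid markers (left, log x axis) and of 12 MuSC markers (right, log x axis), 1 point a library, coloured by group; the open diamond is replicate 3 of the 3 DPI libraries labelled TRF2 knockout. The uninjured libraries sit at or below 236 CPM of myeloid markers and 64.4 CPM of immunoproteasome genes, and the control 3 DPI libraries at 5878 CPM or more and 108 to 159 CPM.

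The second comparison asks how loss of TRF2 relates to proteasome genes in uninjured muscle. In uninjured TRF2 knockout MuSCs 1 of 35 proteasome genes tested fell, Psmd3, and none rose, against 2.63% of all 14048 genes that were called lower. A lower estimate with an unadjusted p under 0.05 was found for 5 of 35 (10.5% of all genes), namely Psmd3, Psmd8, Psma6, Psmc2 and Psmd2. Lower estimates were found for 28 of 35, against 46.0% of all genes, and the groups did not overlap for 4 of 35, against 9.18%. The share of single genes past a threshold was thus near the background, while the estimates lay mostly below 0, with a median log2 difference of -0.38 beside 0.06 for all genes. All 6 ATPases and 10 of 11 non-ATPases had estimates below 0, and both immunoproteasome genes tested had estimates above 0.

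Psmd3 stood at 136, 120, 84.9 and 106 CPM in control and at 41.4, 55.1, 48.7 and 65.4 CPM in knockout libraries. The groups did not overlap, and the log2 difference was -0.96 ± 0.24 (adjusted p = 0.0112). The call was lost in 6 of the 8 fits that leave out 1 library (without control replicate 1, 2 or 4 or knockout replicate 1, 2 or 3), with adjusted p up to 0.0683. Its exons overlap the opposite-strand transcript Gm12356. Psmd8 stood at 77.7, 63.0, 91.9 and 56.6 CPM against 35.5, 38.4, 22.9 and 31.3 CPM, also without overlap, and its log2 difference of -1.04 ± 0.29 had an adjusted p of 0.0251.

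The catalytic genes did not separate by genotype in uninjured MuSCs. Psmb8 stood at 27.2, 10.4, 32.9 and 13.6 CPM in the knockout libraries, with a log2 difference of 0.27 ± 0.46 (adjusted p = 0.780). Psmb10 stood at 21.3, 8.31, 25.8 and 8.17 CPM, with a difference of 0.22 ± 0.52 (adjusted p = 0.857). Both genes were high in knockout replicates 1 and 3 and low in replicates 2 and 4. Psmb9, at 11.8, 8.31, 5.73 and 4.09 CPM, was removed by the filter on low counts, as were Psma8, Psmb3 and Psmd10. Psmb5 stood at 33.1, 1.04, 14.3 and 6.81 CPM (difference 0.24 ± 0.63), Psmb6 at 15.4, 20.8, 38.6 and 44.9 CPM (-0.38 ± 0.36) and Psmb7 at 13.02, 11.4, 11.5 and 24.5 CPM (-0.60 ± 0.46). All 3 overlapped the control libraries.

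Of 5 related lists in uninjured knockout MuSCs, no gene was called among 5 activators, 2 other chaperones, 12 receptors and deubiquitinases, 5 regulators and 23 interferon and MHC class I genes. Nfe2l1 was at -0.40 ± 0.22 (adjusted p = 0.317). In the same comparison 8 of 12 MuSC markers fell, and the summed level of 8 fibroadipogenic markers was 2491 ± 606 CPM in knockout against 7335 ± 1707 CPM in control libraries, with 2 of 7 tested lower and 1 higher. That sum was led by Col3a1 (5313 CPM in control and 1114 CPM in knockout), and the median log2 difference of the 7 was 0.30. Their part in the lower proteasome estimates was not tested. The 2 genotypes share no description code in uninjured muscle, so genotype and code cannot be told apart there.

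**Figure D4:**
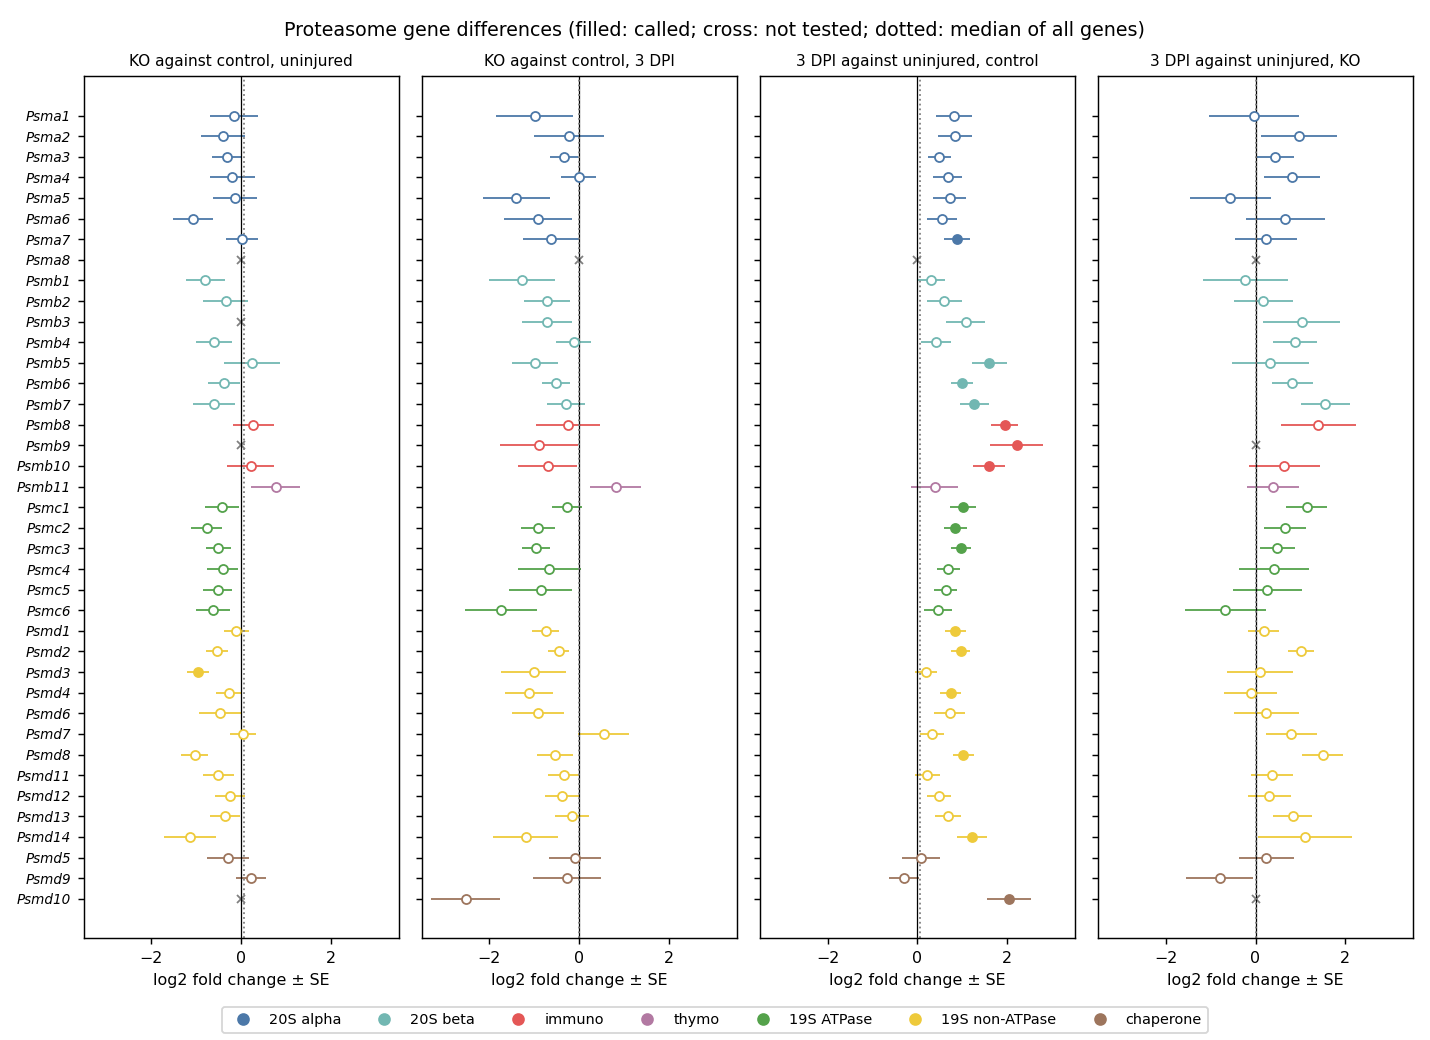
Log2 fold change and SE (x axis) of each proteasome gene (y axis, ordered and coloured by class) in the 4 comparisons; filled points passed the test, open points did not, crosses mark genes not tested, and the dotted line is the median of all genes. In control MuSCs 16 of 38 are filled at 3 DPI, where 10.8% of all genes were called higher. Between genotypes in uninjured muscle 1 of 35 is filled, where 2.63% of all genes were called lower. None is filled between genotypes at 3 DPI (0% of all genes called lower) or after injury under the knockout label (2.43% called higher). The spread between replicates, as edgeR's biological coefficient of variation, was 0.28, 0.30, 0.49 and 0.52, in the order named.

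The third comparison asks the same at 3 DPI. No proteasome gene was called between the 3 DPI libraries labelled TRF2 knockout and the control libraries by edgeR, and 0% of all 14559 genes were called, although 841 genes had a higher and 521 a lower estimate at an unadjusted p under 0.05. A lower estimate with an unadjusted p under 0.05 was found for 4 of 38 (3.58% of all genes), Psmd10, Psmc3, Psmd1 and Psmc2. Psmd10, which had to be lower in the libraries labelled knockout to be tested, lends no support to this count or to the count without overlap. Estimates below 0 were found for 36 of 38, against 49.9% of all genes, with a median of -0.69 beside 0.00. The groups did not overlap for 9 of 38, all lower, against 4.87%, and without replicate 3 for 11 of 38, against 6.79%, with a median of -0.51. With the description code as a block the median was -0.31 beside 0.02, and 29 of 38 estimates were below 0. At 3 DPI only JH133 holds both labelled genotypes, so that fit compares them within that code alone. The median was -1.04 beside -0.18 with limma-voom. It was -0.38 beside 0.05 over the 17 proteasome genes with at least 10 counts in every library.

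Psmd10 had the smallest p. It passed the filter through the control group alone, with 4 control libraries and 0 of those labelled knockout at its minimum of 11.8 CPM. It stood at 21.6, 23.3, 18.7 and 36.2 CPM in control and at 10.5, 3.46, 1.24 and 1.16 CPM in the libraries labelled knockout, with no overlap, a log2 difference of -2.53 ± 0.76 and an adjusted p of 0.452. Without replicate 3 the difference was -2.27 (adjusted p = 0.149). Psmc3 stood at 84.1, 47.3, 62.0 and 121 CPM in the libraries labelled knockout, against 116 to 211 CPM in control, a difference of -0.96 ± 0.32 (adjusted p = 0.453). Psma5, an alpha ring gene, stood at 11.7, 12.7, 0 and 22.1 CPM in the libraries labelled knockout. In control it stood at 30.9, 35.0, 23.6 and 37.9 CPM, a difference of -1.41 ± 0.74 (adjusted p = 0.573). Its exons overlap the antisense gene 1700010K24Rik.

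The immunoproteasome genes spread widely among the 3 DPI libraries labelled TRF2 knockout. Psmb8 stood at 58.4, 71.5, 0 and 104 CPM, Psmb9 at 8.18, 6.92, 0 and 31.5 CPM, and Psmb10 at 32.7, 20.8, 1.24 and 50.1 CPM. Replicate 3 was lowest and replicate 4 highest for all 3 genes. The log2 differences from control were -0.25 ± 0.71, -0.91 ± 0.87 and -0.70 ± 0.66, with adjusted p of 0.933, 0.759 and 0.753. Without replicate 3 they were 0.15, -0.53 and -0.33 (adjusted p of 0.867, 0.744 and 0.761), so the sign of the Psmb8 estimate rests on that library. Psmb5 stood at 24.5, 26.5, 6.2 and 16.3 CPM and Psmb6 at 65.4, 71.5, 43.4 and 39.6 CPM, both below all control libraries, whereas Psmb7, at 85.3, 46.1, 23.6 and 31.5 CPM, overlapped them. Psmd7, a lid subunit chosen after its values were seen, ran the other way in replicate 3, at 219 CPM there against 28.0 to 60.8 CPM in the other 3. In the libraries labelled knockout the MuSC list stood at 704 to 852 CPM, below the 1354 to 1829 CPM of control, while the myeloid ranges overlapped (2409 to 7035 and 5878 to 7522 CPM). Their part in these values was not tested.

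The fourth comparison sets the 3 DPI libraries labelled TRF2 knockout against uninjured TRF2 knockout MuSCs. Terf2 itself differed by 0.27 ± 0.45 on the log2 scale between them (adjusted p = 0.853). Psma8, Psmb9 and Psmd10 were removed by the filter on low counts, and none of the 36 tested was called by edgeR, against 2.43% of all 14578 genes called higher. A higher estimate with an unadjusted p under 0.05 was found for 4 of 36 (8.66% of all genes), Psmd2, Psmd8, Psmb7 and Psmc1. Estimates above 0 were found for 30 of 36, against 50.4%, with a median of 0.42 beside 0.01, and of 0.63 beside 0.05 without 3 DPI replicate 3. With the description code as a block 22 of 36 were above 0, with a median of 0.36 beside -0.0006. Only JH139 holds both states under the knockout label. The calls of this comparison, here and below, do not allow for the code. The groups did not overlap for 2 of 36 (6.90% of all genes), and without 3 DPI replicate 3 for 9 of 36 (11.7%). Psmd2 stood at 50.9, 56.1, 71.6 and 79.0 CPM and then at 114.5, 151, 117 and 161 CPM, without overlap, a log2 fold change of 1.01 ± 0.28 (adjusted p = 0.0513). Psmd8, at 153, 87.7, 29.8 and 111 CPM at 3 DPI, had a log2 fold change of 1.49 ± 0.45 (adjusted p = 0.0732).

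Leaving out replicate 3 changed these calls. Then 4 of 36 rose, against 5.16% of all genes called higher: Psmd8 (1.81 ± 0.33, adjusted p = 0.000125), Psmb8 (1.85 ± 0.41, adjusted p = 0.00163), Psmd2 (1.10 ± 0.28, adjusted p = 0.00651) and Psmb7 (1.80 ± 0.46, adjusted p = 0.00700). With it, Psmb8 was at 1.40 ± 0.84 (adjusted p = 0.477) and Psmb7 at 1.55 ± 0.55 (adjusted p = 0.138). With all 8 libraries, 9 of 24 interferon and MHC class I genes rose, against the 2.43% of all genes called higher in that fit. In the same fit 12 of 14 myeloid markers and 2 of 8 cell cycle genes rose and 8 of 12 MuSC markers fell, and their part was not tested. Tyrobp and Fcer1g, at 1.43 to 12.3 CPM in uninjured knockout libraries, had to be higher at 3 DPI to be tested. They lend the myeloid count no support.

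The difference between the injury responses of the 2 labelled genotypes was tested over all 16 libraries. For Terf2 itself it was 1.14 ± 0.50 (adjusted p = 0.824), upward in the libraries labelled knockout. No proteasome gene was called by edgeR, 0.0178% of all 16822 genes were called lower and 0 higher (365 and 601 at an unadjusted p under 0.05). An unadjusted p under 0.05 with a lower estimate was reached by 1 of 38, Psmd10, against 2.17% of all genes; the filter's minimum of 11.3 CPM was reached for it by 4 control 3 DPI libraries and 1 other of the 16. Estimates were below 0 for 21 of 38, against 48.4%, with a median of -0.07 beside 0.03. That median was -0.54 beside -0.06 with the description code as a block and -0.58 beside -0.19 with limma-voom (26 of 38 below 0 in both), -0.27 beside -0.13 without 3 DPI replicate 2 labelled knockout, and -0.26 beside -0.01 without replicate 1. Psmd10 was at -3.19 ± 0.99 (adjusted p = 0.570), Psma5, with the next smallest p, at -1.17 ± 0.89 (adjusted p = 0.946), and Psmb8, Psmb9 and Psmb10 at -0.42 ± 0.88, -1.52 ± 1.24 and -0.82 ± 0.85. Without 3 DPI replicate 3 labelled knockout, Psmd10 was at -3.00 (adjusted p = 0.266) and Psmb8, Psmb9 and Psmb10 at -0.12, -1.26 and -0.55. A difference between the labelled genotypes in the injury response is therefore not shown for the immunoproteasome genes.

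Each immunoproteasome gene was also set against the constitutive gene it replaces within a library. In control MuSCs the log2 ratio of Psmb8 to Psmb5, from TPM plus 1, was 1.27, 0.82, -1.03 and -0.52 uninjured and 0.44, -0.05, 1.11 and 0.07 at 3 DPI. The ratio of Psmb10 to Psmb7 was -1.62, -0.87, -0.41 and -1.45 and then -1.12, -0.44, -1.01 and -0.87. The ratio of Psmb9 to Psmb6 was -6.71, -2.49, -1.83 and -2.19 and then -2.54, -1.29, -1.66 and -0.92. The ratio of -6.71 belongs to a library with 0 counts of Psmb9, so the added 1 TPM sets its size. All 3 overlapped between the states. The mean differences were 0.26 ± 0.60, 0.23 ± 0.31 and 1.70 ± 1.19 (SE), with exact two-sided permutation p of 0.657, 0.543 and 0.143. The difference for Psmb9 and Psmb6 was 0.57 without uninjured control replicate 1. Over the 12 ratio tests of 4 comparisons the adjusted p ran from 0.784 to 0.943, in a design that allows no p below 0.0286.

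As a share of the 6 catalytic genes per length, the 3 immunoproteasome genes made up 26.0, 35.2, 30.0 and 25.6% in uninjured control MuSCs and 36.5, 38.7, 41.4 and 40.5% in control MuSCs at 3 DPI. These groups did not overlap, at means of 29.2 ± 4.47% and 39.3 ± 2.20%. The uninjured knockout libraries held 44.3, 43.4, 45.0 and 22.7%, with replicate 4 apart from the other 3. The 3 DPI libraries labelled knockout held 31.5, 35.9, 1.29 and 64.4%, a mean of 33.3 ± 25.8% that became 43.9 ± 17.8% without replicate 3. No test was made on these shares.

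Proteasome genes also varied together from library to library. Over the 16 libraries the median Pearson correlation of a proteasome gene with the mean of the others on log2 CPM was 0.69, beside 0.15 for all genes with the same mean. After removing group means it was 0.53 beside 0.21, and without 3 DPI replicate 3 labelled knockout it was 0.38 beside 0.09, over 15 libraries. In this last set Psmb8 stood at 0.55, Psmb10 at 0.60 and Psmb9 at 0.08. The points share library depth and scaling, and no p is given.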

How the data were processed

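Total RNA of sorted MuSCs was made into CORALL libraries. Per the labels, the submitters' processing notes name Trim Galore 0.6.7, STAR 2.6.1d, Salmon 1.5.2 and GRCm38 (mm10); the kit adds molecular identifiers, and whether they were used to count is not stated. The authors deposited estimated counts per gene, not normalized, and a second table of estimated counts rescaled from abundance, whose ratio to the first fell with exon length in every library (Spearman rho -0.79 to -0.73) and which was divided by its library total and used as TPM for levels between genes. Estimated counts were rounded. After filterByExpr and TMM scaling, edgeR 4.0.16 (R 4.3.3) gave robust quasi-likelihood tests on the 8 libraries of each comparison, or all 16 for the interaction, with Benjamini-Hochberg adjustment over all genes tested and a threshold of 0.02 with a fold change over 1.5. The script was tested on simulated data. An SE is the log2 fold change divided by the root of the test statistic. Gene positions and overlaps are from GENCODE M21, sequences from RefSeq. The 39 genes and all lists were chosen with earlier results of these data known. Named are the 6 catalytic genes, the called genes of each comparison (3 of smallest p where over 6 were called) or, with none, the 2 of smallest p. The study describes its replicates as biological, but the labels tie no library to an animal, so p-values measure only the spread between these samples; no pair of libraries was a duplicate. Alternatives used limma 3.58.1 and DESeq2 1.42.0, other scalings and filters, blocks and left-out libraries. A further list of related genes, some of which were called, is not reported here.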

Additional observations from a re-analysis of the deposited data

Results flagged for a closer look

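Within groups of 4, 6 values lay far from the other 3 by Dixon's criterion, among 128 value sets examined, of which chance gives about 1 in 20. Psmb7 stood at 24.5 CPM in uninjured TRF2 knockout replicate 4, against 11.4 to 13.02 CPM in the others. In the same library the immunoproteasome genes made up 22.7% of the catalytic genes, against 43.4 to 45.0%. Psma5 stood at 6.98 CPM in uninjured control replicate 3, against 22.3 to 25.2 CPM. The log2 ratio of Psmb9 to Psmb6 was -6.71 in uninjured control replicate 1, where Psmb9 had 0 counts, against -2.49 to -1.83. The summed immunoproteasome abundance was 89.6 TPM in uninjured control replicate 2, against 75.2 to 76.9. The summed 19S non-ATPase abundance was 1222 TPM in replicate 1 of the 3 DPI libraries labelled TRF2 knockout, against 860 to 915.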

How the results depend on the processing

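In uninjured muscle the count of 1 gene called lower became 2 with DESeq2, without a filter or at an adjusted p under 0.05 (6.32%, 2.14% and 3.77% of all genes), and 0 with limma's robust fit, library size alone, all 16 libraries in 1 fit or the rescaled table (0.0654% to 1.51%), and it ran from 0 to 1 when 1 library was left out (1.43% to 3.20%). In control MuSCs the 16 genes called higher at 3 DPI became 1 with all 16 libraries in 1 fit, 6 with the description code as a block and 5 on the rescaled table (5.12%, 5.29% and 6.06% of all genes), and 10 to 15 without 1 library (8.45% to 10.0%). After injury under the knockout label 0 became 1 with limma's robust fit (Psmd8) or DESeq2 (Psmd2), where 3.75% and 4.33% of all genes were called, 2 with at least 10 counts in every library or all 16 libraries (6.66% and 4.29%), and 0 to 4 without 1 library (1.39% to 5.16%). Genes without overlap there went from 2 to 9 without replicate 3 of the 3 DPI libraries labelled knockout, an alternative chosen after seeing the data. The share of all genes went from 6.90% to 11.7%. Between genotypes at 3 DPI the same alternative took the count from 9 to 11, and the share of all genes from 4.87% to 6.79%. In the interaction limma's robust fit called 1 gene of 38 lower, Psmd10, against 0.464% of all genes. From counts, the mean immunoproteasome share was 33.0% in uninjured control, 43.4% in control at 3 DPI and 42.4% in uninjured knockout MuSCs, beside 29.2, 39.3 and 38.8% per length. The cause of these changes was not tested. No called value reversed its sign. Scaling by library size alone moved the median of all genes in uninjured muscle from 0.06 to 0.24 and in control injury from 0.07 to 0.23, while that of the proteasome genes moved from -0.38 to -0.19 and from 0.73 to 0.90. Replicate numbers are shared between groups but did not pair the samples (correlations -0.11 to 0.11), and the replicate block gave 14 proteasome genes in control injury and changed no other count of them, while calls over all genes went from 452 to 536 (uninjured genotype), 3104 to 2837 (control injury), 589 to 364 (knockout injury) and 3 to 1 (interaction), and stayed at 0 for genotype at 3 DPI. At a median of 29 counts per gene and library, Psma8, Psmb3, Psmb9 and Psmd10 were too low to be tested in 1 or more comparisons.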
